A study of Homo sapiens with 4 samples.

Results

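The 10 genes described here are ATF4, DDIT3, TRIB3, CHAC1, SESN2, ASNS, PHGDH, PSAT1, SHMT2 and MTHFD2, which were selected by symbol from a table of 27800 gene symbols. All 10 were found, each at 1 row. They cover the transcription factor ATF4, its stress-induced targets, and the enzymes of asparagine, serine and mitochondrial one-carbon synthesis. The cells were MOLM-13, a line from human acute myeloid leukaemia that carries a KMT2A-MLLT3 fusion, transduced with lentivirus carrying CRISPR-Cas9. The 4 libraries formed 2 groups of 2, namely sgKAT6A, which received a guide against the histone acetyltransferase gene KAT6A, and EV, which received the vector labelled EV. By that description all 4 received the Cas9 lentivirus, which the label EV alone does not show. The labels name no difference in growth medium. The study asked how the loss of KAT6A alters the transcription of these leukaemia cells. The sources used here do not give the content of EV, the guide, the time of harvest or whether the cells were a pool or a clone. The labels do not say that the libraries of a group came from separate cultures, so each p-value reflects only how these libraries spread, which may be technical.

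ATF4 is a basic leucine zipper transcription factor whose translation increases when kinases phosphorylate the initiation factor eIF2alpha. This is the integrated stress response, triggered by amino acid shortage, unfolded proteins in the endoplasmic reticulum, haem deficiency or mitochondrial damage. ATF4 binds C/EBP-ATF response elements (CARE) and induces genes for amino acid synthesis and uptake, and under prolonged stress, with DDIT3 (CHOP), genes linked to cell death. PHGDH and PSAT1 make serine from a glycolytic intermediate, and SHMT2 and MTHFD2 pass its one-carbon unit to folate in mitochondria for nucleotide synthesis. Dividing leukaemia cells draw on these pathways, and some of their genes are also known as targets of MYC. Because ATF4 is controlled largely in translation, its transcript level does not measure its activity.

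The promoter letters of these genes are shown first. RefSeq promoters on GRCh38.p14, from 250 bases before to 50 after a start site, were at hand for 9 of the 10 genes, with 14 start sites. The motifs were searched on both strands, and no matches of different motifs overlapped at these genes. A gene was counted when any of its start sites matched, whereas the shares below are of single promoters. Counts and shares are therefore in unlike units. The CARE core, TGATGNAA, was found at ASNS and CHAC1, and in 3.62% of all 35116 promoters of this length. The CCAAT box was found at 6 of the 9 genes, namely DDIT3, CHAC1, SESN2, PHGDH, PSAT1 and MTHFD2, and in 34.6% of all promoters. The E-box CACGTG, which MYC and related factors can bind, was found at ATF4 alone among the 9 and in 7.26% of all promoters. The letters TGACGTCA were at none of the 9 and in 1.85% of all promoters. The stretches below run 5′ to 3′ on the strand of the gene, with the motif in capitals.
ASNS, chr7:97872459-97872488, minus strand, CARE core, 68 bases before the start: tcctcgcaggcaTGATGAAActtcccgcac
CHAC1, chr15:40953250-40953279, plus strand, CARE core on the opposite strand: cctcccctgccgTTGCATCActcctgccag
ATF4, chr22:39520464-39520493, plus strand, E-box: gggaggagacggtCACGTGgtcgcggcgga
PSAT1, chr9:78296999-78297088, plus strand, 3 CCAAT boxes: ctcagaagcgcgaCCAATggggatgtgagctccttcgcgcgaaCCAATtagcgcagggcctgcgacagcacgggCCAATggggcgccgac
PHGDH, chr1:119711850-119711879, plus strand, CCAAT box: tgagtatttccgtCCAATcaaaaggagact
MTHFD2, chr2:74198528-74198557, plus strand, CCAAT box: catgcggcagggaCCAATgggtggcggagg
Of these stretches, only that of PSAT1 touches no exon of GENCODE 29, and the others touch an annotated exon of the same or of an overlapping gene. A match describes letters in a window and is not evidence of a bound site. A missing match does not show that a gene lacks the element, which may lie outside the window or differ in letters.

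Expression was available as TPM, the length-corrected share of a library's transcripts out of 1000000, which keeps no read depth, so no counting interval was computed. KAT6A itself was at 12.2 and 10.8 TPM in the sgKAT6A libraries and at 16.2 and 16.7 TPM in the EV libraries, lower in sgKAT6A without overlap. A guide can disrupt the protein without removing the transcript. Libraries of the same group differed widely. Among 10788 protein-coding genes tested, 537 differed more than 2-fold between the sgKAT6A libraries and 440 between the EV libraries. Between the groups the count was 113 for sgKAT6A 1 and EV 1 and 205 for sgKAT6A 2 and EV 2. For libraries of unlike number it was 220 for sgKAT6A 1 and EV 2 and 1107 for sgKAT6A 2 and EV 1. Protein-coding genes held 77.9% and 78.1% of the TPM in sgKAT6A and 81.2% and 81.6% in EV. RNA18SN5, an 18S ribosomal RNA gene, had 340 TPM in sgKAT6A 2 and 10401 to 13751 TPM in the other 3 libraries. All 10 markers fixed for myeloid MOLM-13 cells reached 1 TPM, and they summed to 11810 and 10585 TPM in sgKAT6A 1 and 2 and to 7818 and 9026 TPM in EV 1 and 2. Most of that sum was lysozyme, LYZ, at 10975 and 9500 TPM in sgKAT6A cells and 7060 and 8068 TPM in EV cells (unadjusted p = 0.0287, adjusted p = 0.784 by limma). The receptor gene FLT3 was at 46.2 and 42.9 TPM in sgKAT6A cells and 61.0 and 59.4 TPM in EV cells (unadjusted p = 0.021, adjusted p = 0.784 by limma). HOXA9 was at 42.8 and 49.5 TPM in sgKAT6A cells and 54.7 and 51.7 TPM in EV cells (adjusted p = 0.784 by limma). LYZ was higher and FLT3 and HOXA9 lower without overlap, while the other myeloid markers overlapped. The part of these markers in the results below was not tested. The summed levels of T cell, B cell, epithelial, fibroblast and endothelial markers were at most 13.1 TPM in any library, with CD2 and MS4A1 listed at 0 in all. Haemoglobin and other erythroid markers summed to 390 and 245 TPM in sgKAT6A 1 and 2 and to 146 and 409 TPM in EV 1 and 2, and their part in the results was not tested.

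The 10 genes were measured in all 4 libraries, and their levels spanned a wide range. Averaged over the libraries, ATF4 was highest at 249 TPM, with a range of 218 to 290. SHMT2 at 103 TPM and MTHFD2 at 95.4 TPM followed and overlapped in range. PSAT1 at 38.0 TPM and PHGDH at 33.1 TPM also overlapped, and PSAT1 at its lowest, 19.4 TPM in sgKAT6A 2, was below DDIT3 in the same library, 21.2 TPM. DDIT3 at 15.5, TRIB3 at 13.2, ASNS at 9.75 and SESN2 at 8.87 TPM each overlapped with the next in this order. CHAC1 was lowest at 1.30 TPM, close to the minimum mean of 1 TPM for testing, which all 10 genes passed. Summed over the 10 genes, the level was 518 and 493 TPM in sgKAT6A 1 and 2 and 654 and 605 TPM in EV 1 and 2.

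In 7 of the 10 genes, both sgKAT6A values lay below both EV values, in 0 they lay above, and in 3 the groups overlapped. Of all 12603 genes tested, 23.2% were lower without overlap and 14.4% were higher. With the table cut to protein-coding genes and rescaled, 7 of the 10 were still lower without overlap, against 16.2% of those tested. Without sgKAT6A 2, the library low in 18S RNA, 8 of the 10 were below both EV libraries, against 33.1% of all genes tested, and the median difference was -0.32. A gene lower without overlap stays so when a library is left out, so this count could not fall below 7. The 7 were ATF4, TRIB3, ASNS, PHGDH, PSAT1, SHMT2 and MTHFD2, and the 3 were DDIT3, CHAC1 and SESN2. The median difference of the 10 was -0.31 on the log2(TPM + 1) scale, against -0.02 for all genes tested. No gene passed an adjusted p of 0.05. With limma, 0 of the 12603 genes tested (0%) and 0 of the 10 passed, while 459 of all genes (3.64%) and 2 of the 10, PHGDH and SHMT2, had an unadjusted p under 0.05. The smallest two-sided p that an exact permutation test of 2 against 2 allows is 0.333, which is the value for each of the 7 genes. In bulk RNA, fewer cells with a program and less of its RNA per cell cannot be told apart.

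**Figure D1:**
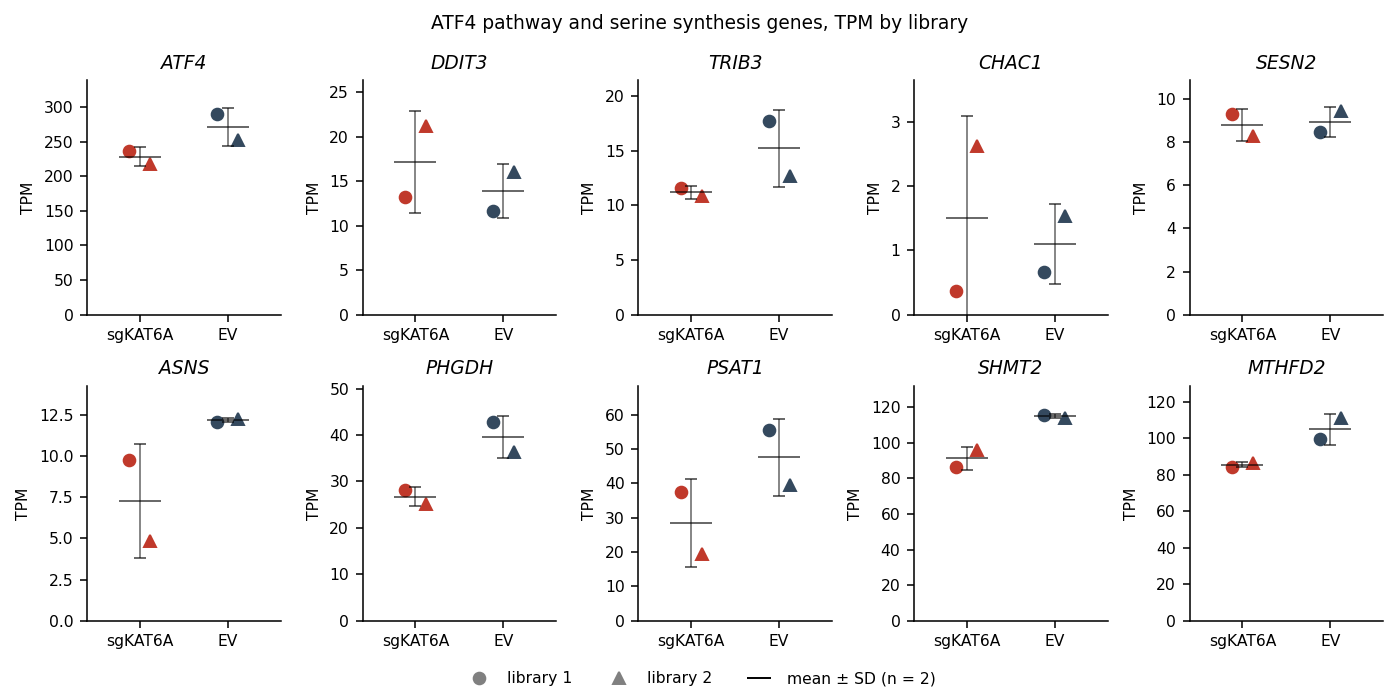
TPM (vertical axes, from 0) of the 10 genes in the sgKAT6A libraries (red, left) and EV libraries (dark, right), with circles for library 1 and triangles for library 2, and bars for the mean ± SD of n = 2, drawn down to 0 at most. The red points lie below the dark ones for ATF4, TRIB3, ASNS, PHGDH, PSAT1, SHMT2 and MTHFD2, whereas DDIT3 and CHAC1 are higher in library 2 of each group.

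ATF4 (ENSG00000128272.14, chromosome 22, 39519695 to 39522685, GENCODE 29 on GRCh38) was at 237 and 218 TPM in sgKAT6A cells and at 290 and 252 TPM in EV cells. The groups did not overlap, although the lower EV library and the higher sgKAT6A library lay close together. The means were 228 ± 13.8 and 271 ± 27.2 TPM (SD, n = 2 each), a ratio of 0.839 for sgKAT6A over EV. On the log2 scale sgKAT6A minus EV was -0.25 ± 0.13 (SE; 95% interval -0.61 to 0.12), with an adjusted p of 0.784 by limma. Leaving out 1 library at a time gave -0.35 without EV 2 to -0.15 without EV 1. After quantile normalization the difference was -0.18 and the groups overlapped.

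DDIT3 encodes CHOP, a bZIP factor that dimerizes with C/EBP proteins and with ATF4 under prolonged stress. It was at 13.2 and 21.2 TPM in sgKAT6A cells and at 11.7 and 16.0 TPM in EV cells. The groups overlapped, and both libraries numbered 2 exceeded both numbered 1. Between the groups it differed by 0.27 ± 0.30 in log2 (SE; 95% interval -0.55 to 1.10, adjusted p = 0.815 by limma). This value was -0.05 without sgKAT6A 2 and 0.60 without sgKAT6A 1. DDIT3 (chromosome 12, 57516588 to 57521737) shares exonic positions with MARS and MBD6 on the opposite strand. Since the sources used here give no strand setting, reads of these genes may not be told apart. DDIT3 also shares exonic positions with AC022506.1 on the same strand, a gene without values here. MARS, the methionyl-tRNA synthetase gene, was at 58.1 and 43.0 TPM in sgKAT6A cells and at 68.5 and 61.3 TPM in EV cells, lower in sgKAT6A without overlap. MBD6 was at 21.7 and 20.8 TPM in sgKAT6A cells and at 18 and 17.9 TPM in EV cells, higher without overlap (log2 difference 0.23 ± 0.11 SE, adjusted p = 0.784 by limma), and the part of either gene in the DDIT3 values was not tested. The microRNA gene MIR616, in DDIT3 outside its exons, was at 22.4 and 16.1 TPM in sgKAT6A cells and at 4.50 and 5.08 TPM in EV cells, higher without overlap (adjusted p = 0.693 by limma). Few reads can give such a value in a gene this short, and MIR616 is named after its values were seen.

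TRIB3 encodes a pseudokinase that ATF4 and CHOP induce and that restrains both ATF4 and the kinase AKT. It (chromosome 20, 362835 to 397559) was at 11.6 and 10.8 TPM in sgKAT6A cells and at 17.7 and 12.7 TPM in EV cells. EV 1 stood above the other 3 libraries, which lay within 2 TPM of one another. Its log2 difference was -0.39 ± 0.20 (SE; adjusted p = 0.784 by limma), and -0.17 without EV 1 against -0.62 without EV 2. Its paralogs differed in level, with TRIB1 at 8.37 and 8.84 TPM in sgKAT6A cells and at 7.25 and 7.23 TPM in EV cells, higher without overlap, and TRIB2 at no more than 0.14 TPM.

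CHAC1 encodes a gamma-glutamylcyclotransferase that degrades glutathione and is one of the most inducible ATF4 targets. It (chromosome 15, 40952962 to 40956519) was at 0.362 and 2.63 TPM in sgKAT6A cells and at 0.665 and 1.54 TPM in EV cells. Both libraries numbered 2 were above both numbered 1, and the sgKAT6A libraries were the lowest and the highest of the 4. A log2 difference of 0.11 ± 0.60 (SE; adjusted p = 0.961 by limma) was -0.59 without sgKAT6A 2 and 0.82 without sgKAT6A 1, so its direction depended on the library. It also turned to -0.10 after quantile normalization. Read depth is unknown at these levels, and the log2(TPM + 1) scale understates change there. CHAC2, a paralog with constitutive activity, was higher than CHAC1 in level and varied the other way, at 10.1 and 4.45 TPM in sgKAT6A cells and at 10.5 and 9.45 TPM in EV cells.

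SESN2, the stress-inducible sestrin that senses leucine and inhibits mTORC1, did not separate the groups. It (chromosome 1, 28259527 to 28282491) was at 9.33 and 8.28 TPM in sgKAT6A cells and at 8.46 and 9.43 TPM in EV cells, with all 4 values close together. In log2 the groups differed by -0.02 ± 0.14 (SE), and the 95% interval of -0.41 to 0.37 leaves room for a modest difference either way (adjusted p = 0.969 by limma). Its sign changed with the scaling, to 0.01 with median-of-ratios scaling and 0.04 with protein-coding genes only. SESN1, the paralog known as a p53 target, was at 31.8 and 25.0 TPM in sgKAT6A cells and at 31.7 and 30.4 TPM in EV cells.

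ASNS, asparagine synthetase, carries the CARE core printed above and responds strongly to amino acid shortage. It (chromosome 7, 97852118 to 97872542) was at 9.76 and 4.85 TPM in sgKAT6A cells and at 12.1 and 12.3 TPM in EV cells. The EV libraries were nearly equal, and sgKAT6A 2 was far below the other 3. In log2 terms sgKAT6A differed by -0.73 ± 0.33 (SE; 95% interval -1.66 to 0.20, adjusted p = 0.784 by limma). It was -0.29 without sgKAT6A 2 and -1.17 without sgKAT6A 1, so the library with little 18S RNA decided its size. CHAC1, with the same core but close to the minimum level for testing, was highest in sgKAT6A 2, the library where ASNS was lowest. The part of the core in these values was not tested.

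PHGDH, phosphoglycerate dehydrogenase, catalyses the first step of serine synthesis. It (chromosome 1, 119648411 to 119744226) was at 28.1 and 25.2 TPM in sgKAT6A cells and at 42.8 and 36.4 TPM in EV cells. The groups stood apart, with a gap between them larger than the gap within either. The means were 26.7 ± 2.03 and 39.6 ± 4.52 TPM (SD, n = 2 each), a ratio of 0.674. This gave a log2 difference of -0.55 ± 0.15 (SE; 95% interval -0.96 to -0.14), with an unadjusted p of 0.0202 and an adjusted p of 0.784 by limma. It ran from -0.66 without EV 2 to -0.44 without EV 1, and from -0.52 to -0.49 under the 3 other scalings.

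PSAT1, phosphoserine aminotransferase, follows PHGDH in the pathway. It (chromosome 9, 78297143 to 78330093) was at 37.4 and 19.4 TPM in sgKAT6A cells and at 55.5 and 39.6 TPM in EV cells. The higher sgKAT6A library lay just under the lower EV library, and sgKAT6A 2 was the lowest of the 4. Its log2 difference of -0.78 ± 0.38 (SE; 95% interval -1.83 to 0.28, adjusted p = 0.784 by limma) was the lowest of the 10, but was -0.32 without sgKAT6A 2 and -1.23 without sgKAT6A 1. After quantile normalization it was -0.73 and the groups overlapped. PSPH, which completes the pathway and has a near-identical pseudogene copy that could share its reads, was at 28.1 and 24.6 TPM in sgKAT6A cells and at 32.3 and 32.6 TPM in EV cells (log2 difference -0.29 ± 0.13, adjusted p = 0.784 by limma).

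SHMT2, mitochondrial serine hydroxymethyltransferase, turns serine into glycine and a one-carbon unit. It (chromosome 12, 57229327 to 57234935) was at 86.7 and 95.9 TPM in sgKAT6A cells and at 116 and 114 TPM in EV cells. The EV libraries were nearly equal, and both sgKAT6A libraries lay below them. Its log2 difference, -0.33 ± 0.12 (SE; 95% interval -0.66 to -0.01), had an unadjusted p of 0.0477 and an adjusted p of 0.784 by limma. It ran from -0.40 without sgKAT6A 2 to -0.26 without sgKAT6A 1. The cytosolic paralog SHMT1 was lower in level, at 11.3 and 11.6 TPM in sgKAT6A cells and at 11.8 and 12.3 TPM in EV cells, with a log2 difference of -0.06 ± 0.12 (SE, adjusted p = 0.89 by limma).

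MTHFD2, the mitochondrial methylenetetrahydrofolate dehydrogenase that many tumours express, acts after SHMT2. It (chromosome 2, 74198562 to 74217565) was at 84.5 and 86.7 TPM in sgKAT6A cells and at 99.4 and 111 TPM in EV cells. The sgKAT6A libraries were close to each other and below both EV libraries. On the log2 scale the difference was -0.29 ± 0.12 (SE; 95% interval -0.63 to 0.04, adjusted p = 0.784 by limma), with -0.37 without EV 1 and -0.21 without EV 2. MTHFD2L, its paralog, was at 6.38 and 3.20 TPM in sgKAT6A cells and at 5.62 and 5.07 TPM in EV cells, and overlapped. Pseudogene copies named after ATF4, ASNS, PSAT1 and MTHFD2 exist in GENCODE 29 and may share their reads. Exons of ASNS, SHMT2 and MTHFD2, like those of DDIT3, also overlap exons of other annotated genes. The part of these overlaps in the values was not tested.

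**Figure D2:**
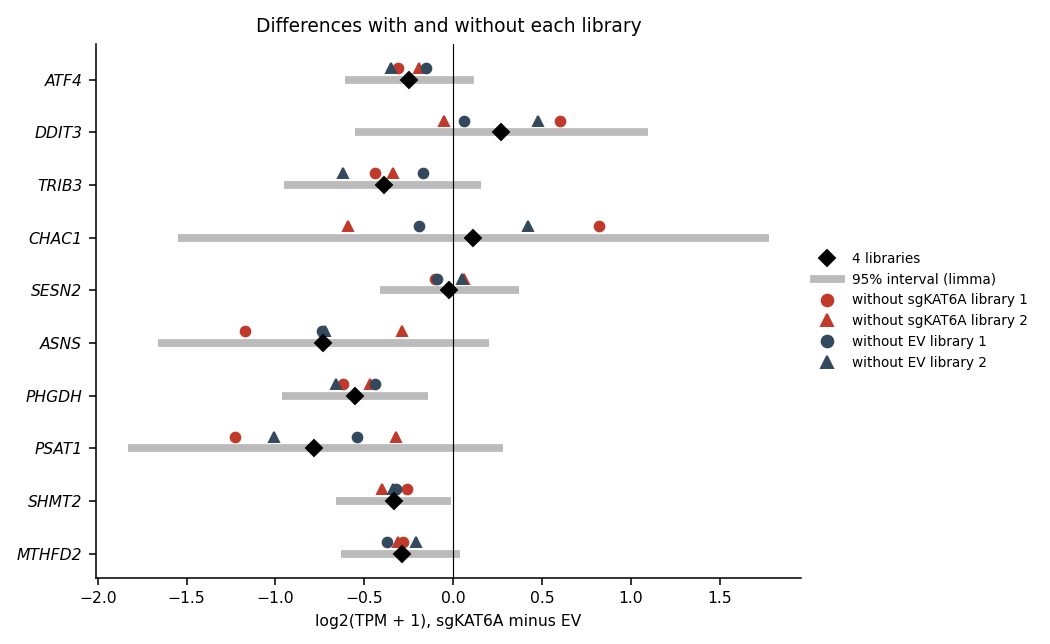
Difference of each gene on the log2(TPM + 1) scale, sgKAT6A minus EV (horizontal axis), with diamonds for all 4 libraries, grey bars for the 95% limma interval, and coloured points with 1 library left out (red for sgKAT6A, dark for EV, circles for library 1, triangles for library 2). ATF4, TRIB3, ASNS, PHGDH, PSAT1, SHMT2 and MTHFD2 stay below 0 with each library left out, while DDIT3, CHAC1 and SESN2 cross it. Genes whose groups do not overlap must stay on 1 side of 0, so only the size of their shift is informative. ASNS and PSAT1 move most towards 0 without sgKAT6A 2.

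The genes thus varied in different ways across the libraries. ATF4, TRIB3, PHGDH and PSAT1 were highest in EV 1 and lowest in sgKAT6A 2, a pattern that SHMT2 and MTHFD2, with their lowest value in sgKAT6A 1, did not share. DDIT3 and CHAC1 were the only members with both libraries numbered 2 above both numbered 1, which held for 27.6% of all genes tested. No member had both libraries numbered 2 below both numbered 1, against 17.5% of all genes tested. By the distance between centred log2 profiles over the 4 libraries, the protein-coding genes most like ATF4 were MRPS5, RAD18, WDR59, TDRD3 and ANKRD46, at 0.012 to 0.030 log2 units. These are the 5 nearest of the 10787 genes ranked, and a profile over 4 libraries has few values to match. The nearest member was TRIB3, in place 1914 of 10787, and the farthest CHAC1, in place 10226.

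**Figure D3:**
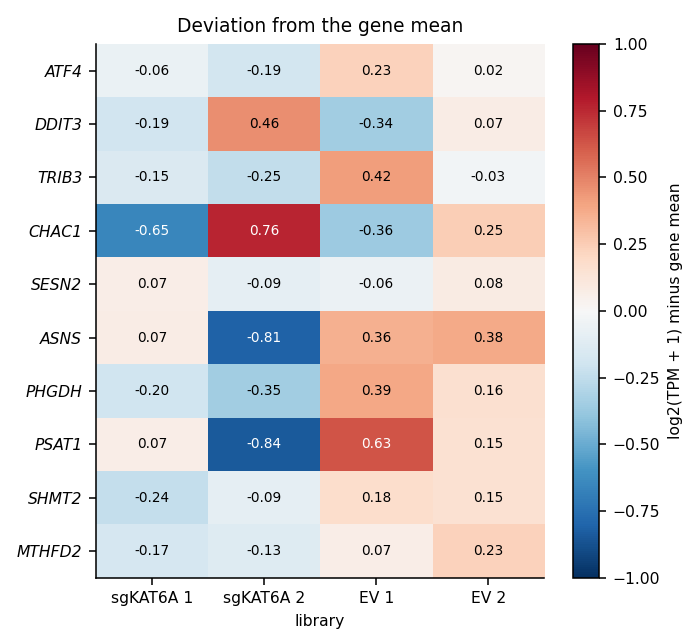
Deviation of each gene from its own mean over the 4 libraries, on the log2(TPM + 1) scale (colour and printed value), with sgKAT6A libraries on the left. In sgKAT6A 2, CHAC1 was 0.76 and DDIT3 0.46 above its mean, while PSAT1 was at -0.84 and ASNS at -0.81.

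The list of kinases and phosphatase subunits upstream of ATF4 also held the eIF2 subunits EIF2S1, EIF2S2 and EIF2S3, and OMA1 and DELE1. Its median log2 difference was -0.01. Of 11 genes tested, 7 had a negative difference, and 4 lay lower and 2 lay higher in sgKAT6A with no overlap, against 23.2% and 14.4% of all genes tested. On the higher side were EIF2AK2 (PKR, which senses double-stranded RNA), at 5.85 and 6.75 TPM in sgKAT6A cells and at 3.90 and 5.32 TPM in EV cells, and EIF2AK3 (PERK, the kinase of the endoplasmic reticulum), at 3.96 and 4 against 3.38 and 3.76 TPM. EIF2AK1, the haem-regulated kinase that also relays mitochondrial stress, was at 37.7 and 39.3 TPM in sgKAT6A cells and at 40.4 and 44.8 TPM in EV cells. EIF2S2 and EIF2S1, subunits of eIF2, were lower too, with log2 differences of -0.27 ± 0.11 and -0.30 ± 0.17 (SE), and KIAA0141, the older symbol of the mitochondrial stress relay DELE1, was the 4th. PPP1R15A (GADD34), which feeds back by dephosphorylating eIF2alpha, was at 34.2 and 51.0 TPM in sgKAT6A cells and at 28.5 and 41.6 TPM in EV cells, with both libraries numbered 2 on top, like DDIT3.

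Among 9 bZIP partners and relatives of ATF4 tested, 2 lay lower and 0 higher in sgKAT6A with no overlap, where 23.2% and 14.4% of all genes did. In 6 of the 9, both libraries numbered 2 were above both numbered 1, which held for 27.6% of all genes. CEBPB, a C/EBP factor of monocytes and of stress, was at 38.7 and 102 TPM in sgKAT6A cells and at 21.3 and 46.7 TPM in EV cells. ATF3, a repressor induced by ATF4, was at 1.46 and 5.08 TPM in sgKAT6A cells and at 0.864 and 1.83 TPM in EV cells. For both, sgKAT6A was higher than EV within each number and the groups overlapped. The 2 without overlap were XBP1, the factor of the IRE1 branch, at 91.6 and 71.0 TPM in sgKAT6A cells and at 154 and 95.6 TPM in EV cells, and BATF3, at 0.873 and 0.644 against 2.02 and 1.31 TPM.

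Other genes known as ATF4 targets varied in different ways. Of 28 listed, some of which are also in the 2 lists above, 24 were tested, 7 lay lower and 0 higher in sgKAT6A with no overlap, and the median log2 difference was -0.08. The shares over all genes were 23.2% lower and 14.4% higher, so the count of lower genes was near that of all genes. The 7 were XPOT, CTH, CBS, ALDH18A1, SLC7A5, SLC3A2 and SLC38A2, which serve tRNA export, sulphur amino acid and proline synthesis, and amino acid transport. CBS, cystathionine beta-synthase, was at 1.32 and 0.50 TPM in sgKAT6A cells and at 3.57 and 2.89 TPM in EV cells, with a log2 difference of -1.18 ± 0.31 (SE, adjusted p = 0.784 by limma). ALDH18A1, which makes the proline precursor, was at 25.7 and 15.3 TPM in sgKAT6A cells and at 37.0 and 30.2 TPM in EV cells. SLC7A5 and SLC3A2, the 2 chains of the leucine transporter, had log2 differences of -0.65 ± 0.32 and -0.21 ± 0.11 (SE).

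Some of these targets differed by library number. Both libraries numbered 2 exceeded both numbered 1 for 10 of the 24 genes, namely DDIT4, NUPR1, GDF15, VLDLR, SLC7A11, ATF5, ATF3, PPP1R15A, JDP2 and VEGFA, against 27.6% of all genes. Both lay below for 5, near the 17.5% of all genes, namely GPT2, PYCR1, SLC1A5, SLC7A1 and SLC43A1. NUPR1, a small stress-induced chromatin protein, was at 1.84 and 37.2 TPM in sgKAT6A cells and at 0.488 and 14.4 TPM in EV cells. DDIT4 (REDD1), an inhibitor of mTORC1, was at 12.6 and 57.4 TPM in sgKAT6A cells and at 12.1 and 13.3 TPM in EV cells, so that sgKAT6A 2 stood alone. Among the 10 myeloid markers, both libraries numbered 2 were above both numbered 1 for PTPRC, SPI1, MEIS1, CD4 and CSF1R. MPO had both below, and CD33, LYZ, FLT3 and HOXA9 had neither. CSF1R, a monocyte receptor, was at 22 and 63 TPM in sgKAT6A cells and at 10.2 and 31.8 TPM in EV cells. The relation of these markers to the stress genes was not tested.

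The other serine, glycine and folate genes were mostly lower in sgKAT6A. Of 22 listed, 20 were tested, 12 were lower without overlap, against 23.2% of all genes, and the median log2 difference was -0.26. Without sgKAT6A 2, 13 were lower than both EV libraries, against 33.1% of all genes, and the median was -0.13. That count could not fall below 12, since genes without overlap stay so when a library is left out. None passed the adjusted threshold, and 1, SFXN1, had an unadjusted p under 0.05. SFXN1, the serine carrier of the mitochondrial inner membrane, was at 25.7 and 19.1 TPM in sgKAT6A cells and at 34.7 and 32.2 TPM in EV cells (log2 difference -0.57 ± 0.19 SE, unadjusted p = 0.0373, adjusted p = 0.784 by limma). MTHFD1, the cytosolic trifunctional enzyme, was at 57.5 and 44.8 TPM in sgKAT6A cells and at 72.6 and 65.9 TPM in EV cells. TYMS, thymidylate synthase, was at 178 and 152 TPM in sgKAT6A cells and at 212 and 196 TPM in EV cells, and SLC19A1, the reduced folate carrier, at 20.0 and 17.4 against 25.7 and 22.6 TPM. GLDC and ALDH1L1 were at or near 0 in every library.

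MYC was at 107 and 55.7 TPM in sgKAT6A cells and at 161 and 93.0 TPM in EV cells, with overlapping groups and its lowest value in sgKAT6A 2, as for ASNS and PSAT1, and its part in these results was not tested. The unfolded protein response outside ATF4 had 5 genes lower and 2 higher without overlap among 12, against 23.2% and 14.4% of all genes, with a median log2 difference of -0.14 that was -0.06 without sgKAT6A 2. HSPA5 (BiP), the main chaperone of the endoplasmic reticulum, was at 173 and 123 TPM in sgKAT6A cells and at 192 and 190 TPM in EV cells. ERN1 (IRE1), its sensor kinase, was at 5.01 and 4.44 TPM in sgKAT6A cells and at 3.50 and 3.71 TPM in EV cells, and SDF2L1 and CRELD2 were lower, with log2 differences of -0.47 and -0.30.

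**Figure D4:**
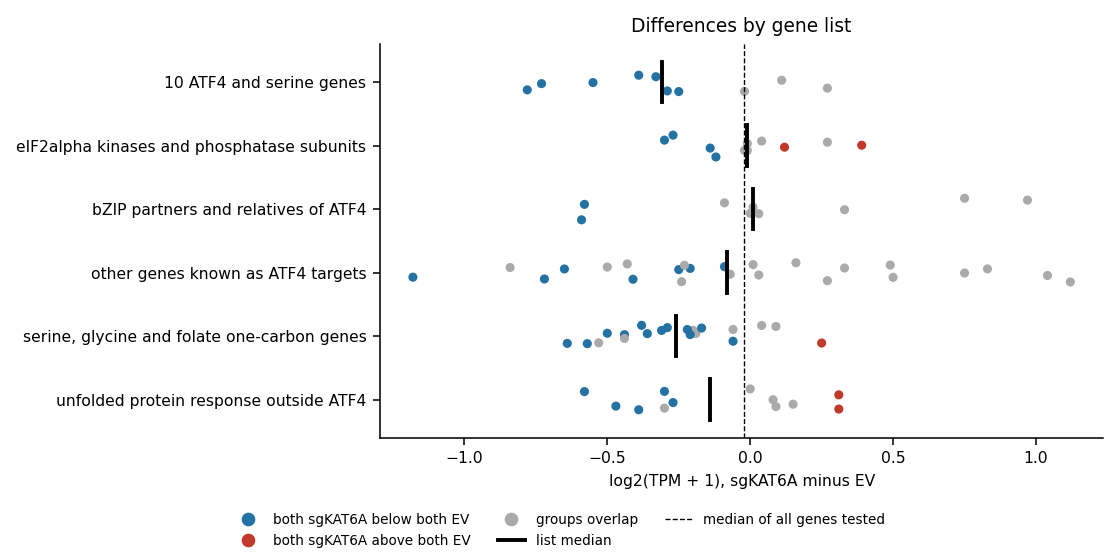
Difference of each tested gene on the log2(TPM + 1) scale, sgKAT6A minus EV (horizontal axis), by gene list, with blue for both sgKAT6A libraries below both EV libraries, red for both above, grey for overlap, black bars for list medians and a dashed line for the median of all genes tested, -0.02. The list medians are -0.31 for the 10 genes, -0.26 for serine, glycine and folate genes, -0.14 for the unfolded protein response, -0.08 for other ATF4 targets, -0.01 for kinases and phosphatase subunits and 0.01 for bZIP partners. The list of kinases and phosphatase subunits also holds eIF2 subunits, OMA1 and DELE1.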

How the data were processed

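The deposited table gives TPM by gene symbol. The authors quantified with Salmon against hg38, per the submitters' processing notes. The sources used here do not give the version, annotation, filters or strand setting. Each library sums to 1000000, and 6449 of 27800 symbols are 0 throughout. Genes that averaged 1 TPM or more over the 4 libraries were compared as log2(TPM + 1), sgKAT6A minus EV, with limma 3.58.1 in R 4.3.3 (empirical Bayes with a trend, 2 residual plus 1.98 prior degrees of freedom, two-sided, Benjamini-Hochberg adjustment over 12603 genes, threshold 0.05). The fit was tested on simulated data with independent noise between libraries, which lack the variation shared by same-numbered libraries. Calling of planted differences was required there only with the spread reduced below that of these data. Gene classes came from RefSeq gene records, locations from GENCODE 29 and promoter letters from RefSeq.

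The 10 genes and the pathway lists were chosen with earlier results of these data known, so no p was computed over a list. From each list, up to 4 genes without overlap were named by smallest unadjusted p, with paralogs for level and KAT6A as the label check. EIF2AK3, KIAA0141, CEBPB, ATF3, MBD6, MIR616, NUPR1, DDIT4, PPP1R15A, HSPA5, PSPH, CSF1R, MYC, MARS, LYZ, FLT3 and HOXA9 were added after their values were seen. So were genes named only to spell out a count, and the other myeloid markers named by library number. Some genes of the lists are not reported here by name. Alternatives were the pseudocount (0.1 or 5), the filter (none or 5 TPM), 3 scalings, no variance trend, leaving out each library, and a block for the replicate number. Counts of genes without overlap under the scalings and without each library were added after seeing the data. Figures used matplotlib 3.10.9.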

Additional observations from a re-analysis of the deposited data

How the results depend on the processing

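The median difference of the 10 genes stayed negative under every alternative run. Scaling by median of ratios gave -0.28, quantile normalization -0.26 and protein-coding genes only -0.25, and the range was -0.35 to -0.26 with 1 library left out, against -0.31 in the main result. Genes lower without overlap numbered 7 under median-of-ratios scaling, 7 among protein-coding genes only and 5 after quantile normalization, where ATF4 and PSAT1 overlapped. With 1 library left out the count was 7 to 8. The 7 genes lower without overlap in the main result must stay lower when a library is dropped. Neither that count nor the sign of their differences or of the median is then a check. None of the 10 passed under any alternative, where the lowest adjusted p was 0.175 by limma. Of 129 values of single genes, 121 kept their direction and 8 reversed, the cause of which was not tested. The filters, the variance trend and the replicate block cannot change the difference of a gene. Part of the 121 was therefore fixed in advance and is no check. These settings also leave the median as in the main result, apart from the 5 TPM filter, which drops CHAC1. SESN2 turned from -0.02 to 0.01 with median-of-ratios scaling, 0.04 with protein-coding genes only, 0.05 without EV replicate 2 and 0.06 without sgKAT6A replicate 2. CHAC1 turned from 0.11 to -0.10 with quantile normalization, -0.19 without EV replicate 1 and -0.59 without sgKAT6A replicate 2 (0.82 without sgKAT6A replicate 1). DDIT3 turned from 0.27 to -0.05 without sgKAT6A replicate 2 (0.60 without sgKAT6A replicate 1). CHAC1 had no value with a mean of at least 5 TPM. A replicate block, which pairs same-numbered libraries, gave 15 genes called by limma against 0 without it, none of them among the 10. At an unadjusted p under 0.05 that fit had 2417 genes, 7 of them among the 10, against 459 and 2. The labels do not say that a number pairs libraries. The deviations of same-numbered libraries from their group means correlated at 0.45 across genes. With 1 library left out, 0 genes were called in each fit, in which the lone library is assumed to vary like the others. Depth is unknown and limits CHAC1 most.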
